A study of Mus musculus with 6 samples.

Results

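Smooth muscle actins, calponins, tropomyosins and their partners were taken as 10 genes, Acta2, Actg2, Tagln, Cnn1, Cnn2, Cnn3, Tpm1, Tpm2, Tpm4 and Myl9, of the 18193 genes with a probe set of their own. A probe set was used where the platform annotation gave it 1 gene symbol and that symbol was one of these names, which gave 23 probe sets. All 10 genes were found, 4 of them with several probe sets and 6 with 1. The values came from 6 Affymetrix GeneChip arrays of mouse cells, 3 hybridized with RNA of mature adipocytes (AC) and 3 with RNA of dedifferentiated fat cells (DFAT cells). AC came from fat tissue. DFAT cells came from mature adipocytes by ceiling culture, in which floating adipocytes attach to the upper wall of a filled flask. Growth to semiconfluence is given in the methods for cells to be differentiated, without a density for the arrayed cells. The methods describe DFAT cells as a preadipocyte line made from adipocytes of GFP transgenic mice and do not state such an origin for AC. The labels name no drug and no deleted gene for either group. The line, the culture and any difference in GFP background go with the group and cannot be told apart from it. Over all probe sets, AC replicate 1 stood apart from the other AC arrays, with Pearson r of 0.971 and 0.969 against 0.9915 between those, and values without it are given where it matters.

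Smooth muscle shortens when myosin II pulls on actin filaments, and the smooth muscle actins form a large share of those filaments in contractile cells. Tropomyosins coil along the filaments, calponins and transgelin bind them, and the regulatory light chain switches myosin on when it is phosphorylated. The same proteins build stress fibres in cultured fibroblasts and myofibroblasts, and many of their genes are targets of serum response factor (SRF), which binds the CArG box.

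Promoter sequences are shown because the 10 genes moved together, and CArG boxes are the textbook element of this gene group. RefSeq promoters on GRCm38.p6 were found for 8 of the genes, all but Actg2 and Tagln. The 250 bases before the transcription start were searched on both strands for the CArG box, for a CArG box with 1 C or G in its core, and for the TEAD motif (GGAATG or CATTCC). The CArG box was present in 482 of 32851 promoters (1.47%), the form with 1 C or G in 2380 (7.24%) and the TEAD motif in 4153 (12.6%). Each was present in 2 of the 8 genes. Promoters of the 4 genes with any match are printed 5′ to 3′ on the gene's own strand, with the matches in capitals, and no match overlapped another.
Acta2: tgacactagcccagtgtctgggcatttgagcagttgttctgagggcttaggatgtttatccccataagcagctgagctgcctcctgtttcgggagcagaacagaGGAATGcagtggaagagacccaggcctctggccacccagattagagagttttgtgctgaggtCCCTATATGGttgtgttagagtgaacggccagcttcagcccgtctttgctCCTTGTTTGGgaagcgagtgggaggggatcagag
Cnn2: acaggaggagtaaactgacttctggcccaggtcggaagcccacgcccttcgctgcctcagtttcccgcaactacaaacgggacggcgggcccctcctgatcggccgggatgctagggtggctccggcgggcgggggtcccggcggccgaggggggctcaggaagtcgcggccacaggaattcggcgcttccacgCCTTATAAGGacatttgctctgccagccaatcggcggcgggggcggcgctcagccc
Myl9: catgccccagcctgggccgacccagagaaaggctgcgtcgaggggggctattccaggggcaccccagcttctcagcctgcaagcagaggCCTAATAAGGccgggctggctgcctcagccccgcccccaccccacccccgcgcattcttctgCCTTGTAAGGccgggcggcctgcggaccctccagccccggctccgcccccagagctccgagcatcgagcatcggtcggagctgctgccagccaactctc
Tpm1: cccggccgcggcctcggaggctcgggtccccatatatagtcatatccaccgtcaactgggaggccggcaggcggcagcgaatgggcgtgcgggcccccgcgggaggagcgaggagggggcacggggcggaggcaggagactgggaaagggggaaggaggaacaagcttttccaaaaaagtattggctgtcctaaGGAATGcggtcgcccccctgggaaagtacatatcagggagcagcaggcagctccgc
The Acta2 sequence lies at chr19:34255374-34255623 on the minus strand, and its capitals mark a TEAD motif from 146 to 141 bases before the start and CArG boxes with 1 C or G from 84 to 75 and from 34 to 25. The Cnn2 sequence lies at chr10:79988350-79988599 on the plus strand and holds a CArG box from 56 to 47 bases before the start. The Myl9 sequence lies at chr2:156775214-156775463 on the plus strand and holds a CArG box from 161 to 152 and one with 1 C or G from 99 to 90. The Tpm1 sequence lies at chr9:67049214-67049463 on the minus strand, and its capitals mark a TEAD motif from 56 to 51. None of these letters was found in the windows of Cnn1, Cnn3, Tpm2 and Tpm4. A match is a run of letters and was not tested for binding.

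All 10 genes were higher in DFAT cells than in AC. Each gene was represented by its lead probe set, the brightest of its probe sets by its mean over the 6 arrays. The difference, DFAT cells minus AC, ran from 1.62 for Tpm4 to 4.27 for Tpm2 on the log2 scale, with a median of 3.21, beside a median of -0.06 over all 45037 probe sets tested. An adjusted p under 0.05 from limma was the threshold, and 10 of 10 genes passed it upward and 0 fell. Over all probe sets 20.3% were called higher and 18.1% lower. This balance turned with the scaling, from 5615 higher and 25603 lower with arrays centred on reference genes to 12442 and 3405 with the hybridization controls, and all 10 genes rose under both. By lead probe sets, a rise of at least 4-fold was measured for 9 of the 10 genes, all but Tpm4, against 3.86% of all probe sets. In Cnn3 it rested on 1436836_x_at (4.23-fold), whose ending marks probes that may also match other genes. The Cnn3 probe set without that ending, 1426724_at, rose 2.98-fold. In no gene did the arrays of the groups overlap, and the smallest gap between the lowest DFAT array and the highest AC array was 1.52, in Cnn3. Lack of overlap was not particular to the 10 genes, since 11 of 13 reference genes did not overlap either. Its share over all probe sets is not given here.

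**Figure D1:**
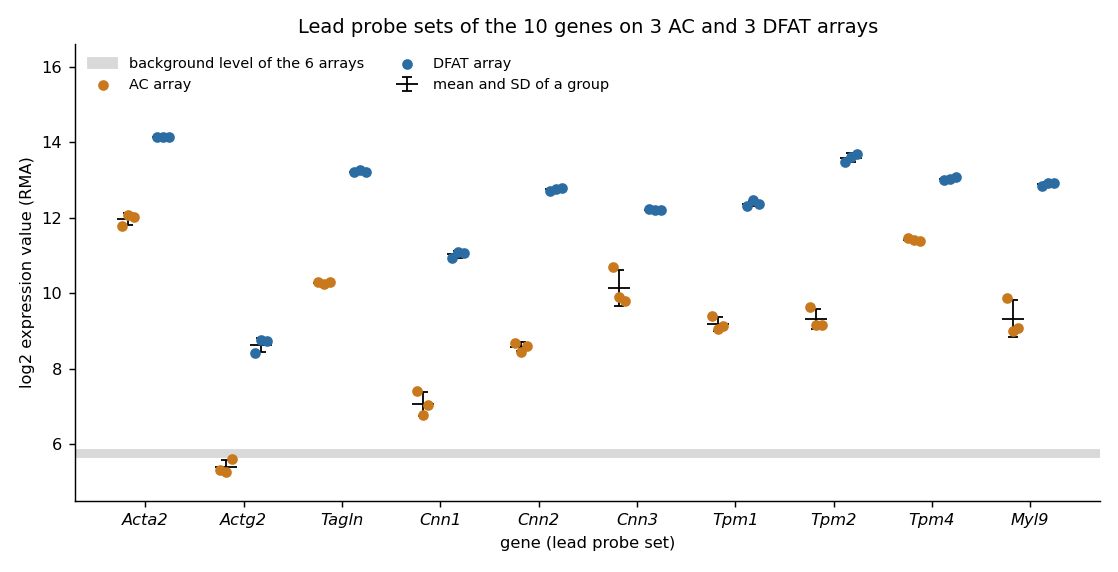
Log2 expression values after RMA (vertical axis) of the lead probe set of each of the 10 genes (horizontal axis), with 3 AC arrays in orange and 3 DFAT arrays in blue. Horizontal ticks with bars are group means and SD, and the grey band runs from the lowest to the highest background level, 5.65 to 5.83. Every DFAT point lies above every AC point of its gene, and Actg2 is the gene whose AC points lie under the band.

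To judge whether a gene gave signal at all, 111 probe sets were read whose 86 genes belong to the eye, inner ear, taste and sperm, and their 95th percentile on an array was its background level. It lay between 5.65 and 5.83 on the log2 scale and is a level of signal, not a detection call. In AC, 9 of the 10 genes were above it on all arrays, and Actg2 was at or under it on all 3. In DFAT cells all 10 were above it. The SD of the lead probe sets ran from 0.0075 to 0.19 over the DFAT arrays and from 0.025 to 0.49 over the AC arrays. AC replicate 1 was above both other AC arrays in 8 of the 10 genes, and stood below their mean in Acta2 and Actg2.

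Acta2 encodes the alpha actin of vascular smooth muscle, which also fills the stress fibres of myofibroblasts. Its lead probe set gave log2 values of 11.79, 12.08 and 12.03 in AC, and DFAT cells gave 14.13, 14.13 and 14.15. By this probe set, 1416454_s_at, the AC values were already high and the DFAT arrays lay within a narrow range above all of them. The other probe sets of Acta2, given below, were at background on every AC array. The log2 difference of the lead was 2.17 (95% confidence interval 1.86 to 2.48, limma adjusted p = 8.07e-06), a 4.5-fold rise. The highest value of any probe set was between 14.55 and 14.61 on each array, so Acta2 in DFAT cells was near the top of the scale, and the part of this in the size of its rise was not tested. A dimmer probe set, 1444105_at, was at background on every AC array (3.80, 4.84 and 4.74) and read 8.29, 8.47 and 8.58 in DFAT cells, a log2 difference of 3.98, or at least 2.69 with AC raised to the background level. The dimmest, 1456658_at, passed the test (limma adjusted p = 0.00491) but was at background on all 6 arrays, so no size is read from it.

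Actg2 encodes the gamma actin of visceral smooth muscle. It read 5.31, 5.27 and 5.60 in AC against 8.41, 8.75 and 8.74 in DFAT cells. The AC values were at the level of the background genes, and the DFAT values were clear of it on each array. The measured log2 difference was 3.24 (95% confidence interval 2.87 to 3.61, limma adjusted p = 2.36e-06). With AC values raised to the background level of their array, the log2 difference was at least 2.88. Actg2 had 1 probe set.

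Myl9 encodes a regulatory light chain of smooth muscle and nonmuscle myosin II, the chain that myosin light chain kinase phosphorylates. Its log2 values were 9.88, 9.0 and 9.09 in AC, and DFAT cells gave 12.85, 12.93 and 12.91. AC replicate 1 was the highest AC array by a wide margin and was still far below the DFAT arrays. The log2 difference was 3.57 (95% confidence interval 3.03 to 4.11, limma adjusted p = 1.08e-05), and it ran from 3.41 to 3.85 when 1 array was left out.

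Tagln encodes transgelin, also named SM22 alpha, an actin-binding protein of the calponin family and an early marker of the smooth muscle lineage. It read 10.30, 10.25 and 10.28 in AC against 13.20, 13.26 and 13.20 in DFAT cells. Both groups were tight, with SD of 0.025 and 0.034, and they were far apart. The log2 difference was 2.94 (95% confidence interval 2.67 to 3.22, limma adjusted p = 8.15e-07), a 7.68-fold rise.

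The calponins bind actin and tropomyosin. Cnn1 is the basic form of differentiated smooth muscle, Cnn2 a form found in many cell types and Cnn3 the acidic form, also widely expressed. Cnn1 read 7.40, 6.76 and 7.04 in AC, and DFAT cells gave 10.92, 11.10 and 11.06, a log2 difference of 3.96 (95% confidence interval 3.54 to 4.38, limma adjusted p = 1.55e-06). Cnn2 read 8.69, 8.45 and 8.6 in AC against 12.71, 12.76 and 12.78 in DFAT cells, a log2 difference of 4.17 (95% confidence interval 3.87 to 4.47, limma adjusted p = 2.44e-07). Both were above background in AC on each array, and their DFAT arrays lay well above. Cnn3 read 10.68, 9.90 and 9.80 in AC, and DFAT cells gave 12.22, 12.20 and 12.21, a log2 difference of 2.08 (95% confidence interval 1.54 to 2.62, limma adjusted p = 0.000212). AC replicate 1 stood out in Cnn3 more than in Cnn1 or Cnn2, and without any 1 array the Cnn3 difference ran from 1.92 to 2.36. Cnn3 had 6 probe sets, which rose by 1.27 to 2.08. The lead, 1436836_x_at, had the largest rise, and 1426724_at, which does not end in _x_at, rose by 1.57.

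The tropomyosins are coiled-coil rods whose genes each give several splice forms, in muscle and in other cells. Tpm1 read 9.39, 9.04 and 9.12 in AC against 12.31, 12.46 and 12.35 in DFAT cells, a log2 difference of 3.19 (95% confidence interval 2.86 to 3.52, limma adjusted p = 1.40e-06). Tpm2 read 9.62, 9.15 and 9.17 in AC, and DFAT cells gave 13.46, 13.61 and 13.69, a log2 difference of 4.27 (95% confidence interval 3.88 to 4.66, limma adjusted p = 7.29e-07) and a 19.3-fold rise. These were large steps between tight groups, and only 0.533% of all probe sets had a larger difference than Tpm2. Tpm4, best known from cells other than striated muscle, read 11.46, 11.41 and 11.38 in AC against 13.01, 13.03 and 13.06 in DFAT cells. Its log2 difference of 1.62 (95% confidence interval 1.34 to 1.89, limma adjusted p = 2.11e-05), a 3.07-fold rise, was the smallest of the 10.

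The probe sets of Tpm1 and Tpm2 differed among themselves. Of the 4 for Tpm1, 1423721_at and 1423049_a_at rose by 3.19 and 2.99, and 1456623_at rose by 1.84 from AC values of 6.66, 5.76 and 5.10. The last of these values was at background, and with it raised to that level the rise of 1456623_at was at least 1.62. The remaining one, 1447713_at, was at background on all 6 arrays with a log2 difference of 0.06 (limma adjusted p = 0.746), and it was the 1 probe set of the 23 that did not pass. Its AC and DFAT values overlapped. Of the 4 for Tpm2, 1419739_at rose by 2.38 (at least 1.28, since it was at background in AC), the lead by 4.27 and 1425028_a_at by 4.68. The largest was 1449577_x_at, which was at background in AC (3.89, 3.94 and 4.0) and read 9.71, 9.60 and 9.75 in DFAT cells, a log2 difference of 5.75, or at least 3.94 with AC raised to the background level. Which transcripts each probe set reads was not analysed here, and the ending _x_at marks probes that may also match other genes.

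**Figure D2:**
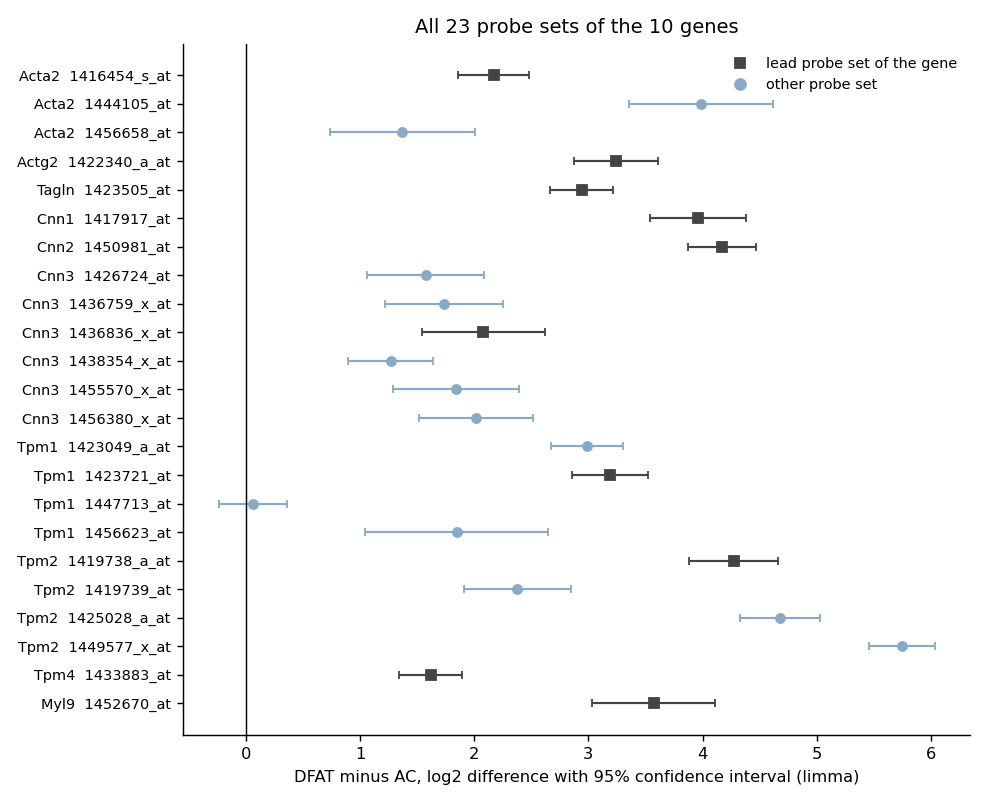
Log2 difference, DFAT cells minus AC, with its 95% confidence interval from limma (horizontal axis) for all 23 probe sets of the 10 genes (vertical axis), from 3 arrays a group. Squares are lead probe sets and circles are the others, and 22 of the 23 passed the test, with differences from 1.27 to 5.75 and intervals above 0. The interval of the Tpm1 probe set 1447713_at, at 0.06, spans 0.

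The sizes of the rises were compared within each family. Within each array the log2 value of one gene was subtracted from that of its relative, and the results were compared between groups by a two-sided exact permutation test over 7 pairs. With 3 arrays against 3 this test cannot go below 0.1, so no pair could pass 0.05. Cnn1 and Cnn2 rose by 1.88 and 2.09 more than Cnn3 on the log2 scale. Tpm1 rose by 1.57 and Tpm2 by 2.65 more than Tpm4, and Tpm1 rose by 1.08 less than Tpm2. In these 5 pairs the AC and DFAT arrays did not overlap (exact p = 0.1, adjusted p = 0.117 over the 7 pairs). The order is that of the lead probe sets. For Tpm2, 1419739_at, at background in AC, had a measured rise of 2.38, below the 3.19 of the Tpm1 lead. The remaining Tpm2 probe sets rose by more than that lead. For Tpm1, 1456623_at rose by 1.84, near the 1.62 of Tpm4. The change of Cnn1 was 0.21 below that of Cnn2 with arrays that overlapped (exact p = 0.2, adjusted p = 0.2). The measured rise of Acta2 was 1.07 below that of Actg2 (exact p = 0.1, adjusted p = 0.117), or 0.71 below it with AC values raised to the background level. With Acta2 read from 1444105_at, its brightest probe set not ending in _s_at or _x_at, its measured rise was 0.75 above that of Actg2, but both probe sets were then at background in AC, and with the floor the rises were at least 2.69 and at least 2.88, which give no order.

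The lead probe set of Acta2 was followed most closely over the 6 arrays by probe sets of Ddah1, Thy1, Spred1, Rpl13a and Axl, with Pearson r between 0.9997 and 0.9999. Any probe set with 1 symbol could enter, and those of Ddah1, Spred1 and Rpl13a were not the brightest of their genes. The brightest one of Rpl13a, which is among the reference genes, rose by 0.47, where the one found here rose by 3.29. This is a description of 6 arrays in 2 groups. Of 4375 probe sets with 1 symbol and an SD of at least 1 over the arrays, 907 had r of at least 0.99, a pattern that many genes shared. Thy1, a surface protein of fibroblasts and stromal cells, read 6.79, 7.50 and 7.46 in AC, and DFAT cells gave 12.14, 12.23 and 12.22. Axl, a receptor tyrosine kinase, read 7.44, 7.89 and 7.89 in AC against 11.72, 11.83 and 11.88 in DFAT cells. In both, as in Acta2, AC replicate 1 was the lowest array, and both were picked by likeness to Acta2 over these same arrays.

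Other genes of the smooth muscle contractile apparatus divided. Of 17 measured genes of 18 listed, 9 rose, 5 fell and 3 did not pass, with a median difference of 0.53, where the 10 genes above gave 3.21. An equal-variance t-test, which the methods give for assay data, called 5 of them higher after adjustment over all probe sets. Kcnmb1, the beta subunit of the large-conductance calcium-activated potassium channel, was at background in AC and read 8.25, 8.46 and 8.62 in DFAT cells, a log2 difference of at least 2.69 with AC raised to the background level (limma adjusted p = 3.71e-06). Lmod1, an actin nucleator of smooth muscle, rose by 2.14, and Cald1, the actin-binding caldesmon, by 1.62. Filip1l rose by 2.13 with a wide spread in AC, where replicate 1 read 8.66 and the others 6.93 and 7.11, and its adjusted p was 0.057 when that t-test was used in place of limma.

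The genes of this list that fell included myosin heavy chain and its kinase. Myh11, the heavy chain that defines mature smooth muscle, read 8.55, 7.28 and 6.77 in AC, and DFAT cells gave 3.39, 3.51 and 3.52, where it was at background. Its log2 difference was -4.06 (limma adjusted p = 0.000105), or -1.85 with DFAT values raised to the background level, which bounds the fall from below. Mylk, the kinase that phosphorylates Myl9, fell by 3.78, from 9.81, 9.90 and 10.06 to 6.40, 6.12 and 5.90 (limma adjusted p = 1.2e-06), and its other 2 probe sets fell as well. Synpo2, an actin-bundling protein of muscle, was at background in DFAT cells with a log2 difference of -4.27, or -3.50 with DFAT values raised to that level, and Des, the muscle intermediate filament desmin, fell by 1.2. Myl9 and Mylk thus had differences of opposite sign, with no overlap between groups in either gene.

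**Figure D3:**
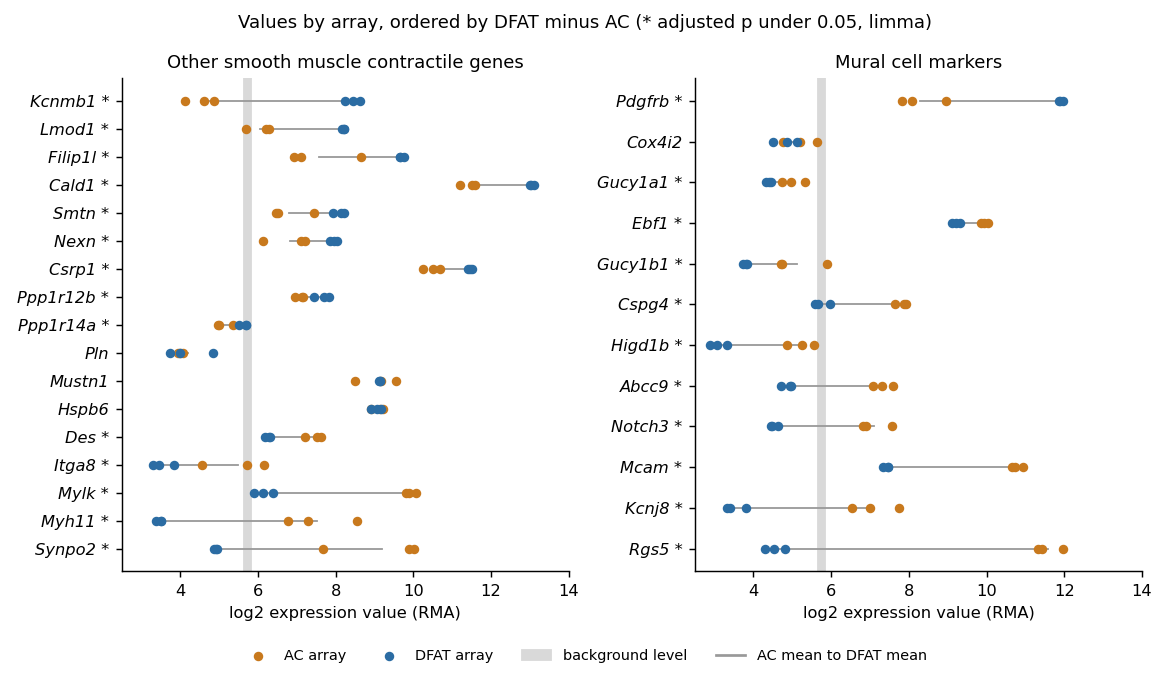
Log2 expression values after RMA (horizontal axis) on 3 AC arrays (orange) and 3 DFAT arrays (blue) for other smooth muscle contractile genes (left panel) and mural cell markers (right panel), ordered by DFAT minus AC. Grey lines join the group means, the grey band is the background level and asterisks mark an adjusted p under 0.05 from limma. Kcnmb1, with a rise of at least 2.69, and Pdgfrb, with one of 3.61, head the panels, and Synpo2, Myh11, Kcnj8 and Rgs5 lie under the band on the DFAT arrays.

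Nearest relatives and filament partners of the 10 genes were divided as well. Of 14 measured, 6 rose, 2 fell and 6 did not pass, with a median of 0.38. Among the actins, cytoplasmic Actb differed by 0.30 (95% confidence interval 0.02 to 0.58, limma adjusted p = 0.0888) and Actg1 by 0.47 (limma adjusted p = 0.0409). Both read 13.27 or more on every array, near the top of the scale. Skeletal Acta1 differed by -0.83 and did not pass, and cardiac Actc1 was at background in both groups. Tagln2, the relative of Tagln found outside muscle, rose by 2.37, the nonmuscle myosin heavy chains Myh9 and Myh10 by 2.11 and 1.08 and Tpm3 by 0.96. The only other probe set of Myh10 did not pass, and of the 4 other probe sets of Tpm3, 2 rose and the rest did not pass. Myh14, another nonmuscle heavy chain, fell by 1.89, and Myl12b, a regulatory light chain closely related to Myl9, fell by 1.59. Myl12a, the paralog of Myl12b in this list, went the other way and rose by 0.64 (limma adjusted p = 0.0125).

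Among SRF and its cofactors, 6 of 12 genes rose, 1 fell and 5 did not pass, with a median of 0.62. The falls were 3 without AC replicate 1 and 2 without AC replicate 2. Mrtfa, a coactivator of SRF that actin monomers hold back, read 6.63, 6.73 and 6.81 in AC against 9.55, 9.74 and 9.66 in DFAT cells, a log2 difference of 2.92 (limma adjusted p = 1.27e-06). The LIM proteins Fhl2 and Fhl1 rose by 3.54 and 2.59, and Srf itself by 0.61 (limma adjusted p = 0.00980). The only other probe set of Fhl1 did not pass. Myocd, the coactivator that is particular to smooth and cardiac muscle, was at background on all 6 arrays, between 3.87 and 4.33. Mrtfb differed by 0.64 and did not pass (limma adjusted p = 0.0900). Klf4, a repressor of smooth muscle genes, fell by 1.57.

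Stress fibre and focal adhesion genes gave 18 rises, 2 falls and 3 that did not pass among 23 measured of 24 listed, with a median of 0.89. With arrays centred on reference genes, 10 rose and 4 fell. Fblim1, a filamin-binding adaptor, rose by 3.90, Pdlim1, which binds alpha-actinin, by 2.91 and Flnc, muscle filamin, by 2.88, while Tns1 fell by 1.83 and Tln2 by 1.08. The call of Tln2 was lost with arrays centred on the hybridization controls (limma adjusted p = 0.109). None of the lists above reached the median of the 10 genes, and differences between lists were not tested. Genes and lists were chosen with earlier results of these data known, so no weight is put on their order.

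**Figure D4:**
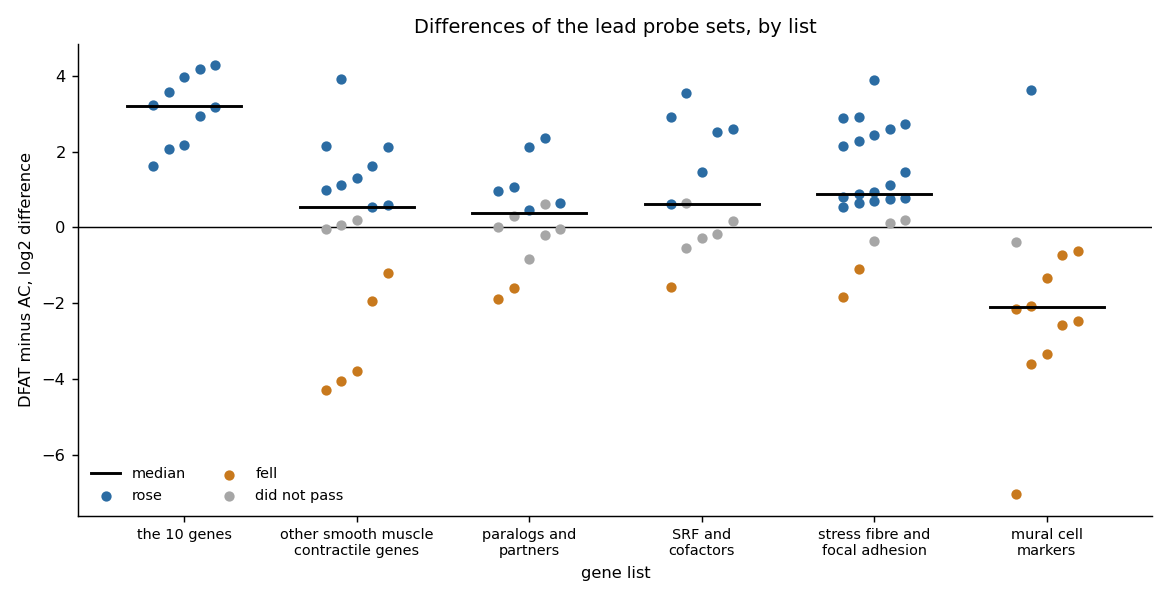
Log2 difference, DFAT cells minus AC, of the lead probe set of each gene (vertical axis) for the 10 genes and 5 other lists (horizontal axis), with genes that rose in blue, those that fell in orange and those that did not pass in grey. Black bars are medians, from 3.21 for the 10 genes to -2.11 for mural cell markers.

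Both groups were checked against cell type markers, since AC from tissue may hold other cells that express smooth muscle genes. Adipoq, the adipocyte hormone adiponectin, was between 14.34 and 14.44 in AC and at background in DFAT cells, and 17 of 17 measured white adipocyte markers fell. Of 12 markers of mural cells, which wrap small vessels and express Acta2 and Tagln, 10 fell, 1 rose and 1 did not pass. Among those that fell, Higd1b and Gucy1a1 were at background on every array of both groups. Gucy1b1 was at background on 2 AC arrays and all 3 DFAT arrays, so no size is read from these falls. The mean of the 12 markers per array was 7.36 to 7.85 in AC and 5.60 to 5.70 in DFAT cells. Rgs5 fell by 7.03 from 11.98, 11.32 and 11.43, Kcnj8 by 3.59 and Mcam by 3.35, and Rgs5 and Kcnj8 were at background in DFAT cells, with differences of -5.89 and -1.41 when those values were raised to that level. Pdgfrb, a receptor of mural cells and fibroblasts, rose by 3.61, from 8.96, 8.08 and 7.83 to 11.88, 11.88 and 11.95.

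Markers of other cells were also present in AC and fell. Endothelial markers averaged 9.62, 7.88 and 7.74 in AC replicates 1, 2 and 3 and 4.44 to 4.45 in DFAT cells, and 18 of 18 fell. Macrophage markers averaged 6.25, 7.78 and 7.88 in AC and 4.24 to 4.34 in DFAT cells, with 15 of 18 lower, or 8 of 18 with values raised to the background level. Myoepithelial and mammary epithelial markers averaged 7.76 to 7.95 in AC and 4.0 to 4.14 in DFAT cells, with 12 of 14 lower, among them Krt18 and Krt8, which were at background in DFAT cells and differed by -5.56 and -5.81 with those values raised to that level. Of skeletal muscle markers, 17 of 18 were at background on all AC arrays and 18 on all DFAT arrays. The exception in AC was Myl1, which read 9.03, 9.45 and 9.43 there. It differed by -5.83, or by -3.62 with DFAT values raised to the background level. In AC replicate 1 the endothelial mean was the highest and the macrophage mean the lowest of the AC arrays. There 8 of the 10 genes and 8 of the 12 mural markers were higher than on both other AC arrays, and Acta2 was lower. Other contractile genes were lower there than on both in 11 of 17 and higher in 4. Stress fibre and focal adhesion genes were lower in 15 of 23 and higher in 7. Such shares over all probe sets are not given here. The part of the cell types marked above in the AC levels of the 10 genes was not tested. In bulk samples fewer cells of a type and less RNA per cell cannot be told apart. Without AC replicate 1, all 10 genes rose, by 1.64 for Tpm4 to 4.43 for Tpm2 on the log2 scale.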

How the data were processed

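The authors deposited log2 values that RMA had background-corrected, quantile-normalized across arrays and summarized to 1 value a probe set. Its version, and the arrays that entered the normalization, are not given in the sources used here. Scanner values were not used here. RNA was extracted with TRIzol and labelled for GeneChip Mouse Genome arrays. Probe sets were named from the platform annotation. Of 45037 tested, 34945 had 1 gene symbol, 932 had several and 9160 had none, and 64 control probe sets were left out. Array medians were 4.92 to 5.11.

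Groups came from the sample labels. DFAT cells were compared with AC with limma 3.58.1 (lmFit and eBayes, two-sided, threshold 0.05 after Benjamini-Hochberg adjustment over every probe set tested) in R 4.3.3. Family members were compared by an exact permutation test in Python 3.11.15 with scipy 1.17.1. The limma step was also run on simulated independent normal values with few changed probe sets. Those differ from these data, so that run is a check of the code only. The number of arrays limits the precision. Whether replicate arrays stand for separate mice or dishes is stated neither in the labels nor in the methods, so a p-value here speaks of the spread among arrays, which may be technical.

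The genes, the lists and the tests were chosen with earlier results of these data known. All 10 genes and their 23 probe sets were named. From the other lists up to 3 genes with the largest rise and up to 3 with the largest fall were eligible, among those past the test without overlap, and other genes were named for their role or as exceptions after their values were seen. A further gene list is not reported here. The background level used 86 of 95 listed genes. Promoters are those of RefSeq on GRCm38.p6. Alternatives were other normalization and centring (array median, 13 reference genes, 18 hybridization controls), a filter, a floor, robust variances with a trend, array weights, an equal-variance t-test (named in the methods for assay data, not for the arrays), fold thresholds, other rules for the probe set of a gene, other background percentiles, the replicate block and leaving out each array.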

Additional observations from a re-analysis of the deposited data

How the results depend on the processing

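Under every alternative run, all 10 genes rose and 0 fell, except that 9 rose when at least 4-fold was required, where Tpm4 did not pass. Counts over all probe sets moved more. With at least 2-fold, 5316 were higher and 4347 lower, and with at least 4-fold 1739 and 2003. Centring on reference genes gave 5615 higher and 25603 lower, hybridization controls gave 3405 lower, and the floor at the background level 5143 lower. The share of calls that were higher was 52.9% as deposited, 63.0% with median centring, 18% with reference genes and 78.5% with hybridization controls, and the median difference moved from -0.06 to 0.07, -0.54 and 0.40. With reference genes Tpm4, the smallest rise, was 1.14. In the fit with the replicate block, 10 genes rose, with 8639 probe sets higher and 7384 lower. Same-numbered arrays did not deviate together (r between -0.03 and 0.01), so the numbers were not taken as pairs. With probe sets not ending in _x_at or _s_at, the change of Acta2 minus that of Actg2 gave 0.7453, with both probe sets at background in AC. Of the other lists, stress fibre genes gave 10 rises and 4 falls with reference genes, 10 rises with at least 2-fold, 8 rises and 0 falls with at least 4-fold and 1 fall with hybridization controls. Hybridization controls took the call of Tln2 away (adjusted p = 0.109). Contractile genes gave 5 rises with the equal-variance t-test after adjustment, and 3 rises and 3 falls with at least 4-fold. Paralogs and partners gave 4 falls with reference genes, 3 rises with at least 2-fold, and 2 rises and 0 falls with at least 4-fold. The falls among SRF and its cofactors, 1 in all arrays as deposited, were 3 with reference genes and with array weights, 2 with quantile normalization again, the dim filter, trend variances and the mean of all probe sets, 0 with at least 4-fold, and 1 to 3 when 1 array was left out, 3 without AC replicate 1 and 2 without AC replicate 2. Macrophage markers gave 8 falls with the floor. The 6 falls of skeletal muscle markers, nearly all at background, were between 1 and 15 over the alternatives, with 3 after quantile normalization, 15 with reference genes, 2 with hybridization controls or at least 2-fold, 1 with the dim filter, the floor or at least 4-fold, and 3 to 5 when 1 array was left out, with 1 rise under hybridization controls and without DFAT replicate 3. Without AC replicate 1, 10674 probe sets were higher and 10324 lower. The causes were not tested.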
